A study of Mus musculus with 51 samples.

Results

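The 89 probes described here measure 70 mouse genes for enzymes that attach ubiquitin to proteins or take it off again. They were taken by gene name from the 7920 features of a spotted 2-colour array, of which 5348 carried 1 gene symbol, for 4201 genes in all. A probe belonged if its symbol began with Ube2, or with Rnf, Trim, Fbxo, Fbxl or Usp and a number. By family there were 15 probes for 11 Ube2 genes, 21 probes for 19 Rnf genes, 14 probes for 11 Trim genes, 10 probes for 8 Fbxo genes, 1 probe for 1 Fbxl gene and 28 probes for 20 Usp genes. The naming rule used no measured value, but it was chosen with earlier results of these data known.

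The 51 arrays came from a series that evaluates methods for finding changed genes with RNA added in known amounts. On every array both dye channels held RNA of 1 mouse hybridoma clone, CRL1606, a fusion of BALB/c spleen cells and a BALB/c myeloma that makes an antibody to fibronectin and was grown in serum-free suspension. Into channel 1 were added 100 genes and into channel 2 another 100, at 1 amount per gene. The amount was 0, 0.05, 0.1, 0.25, 0.5 or 0.75 pmol on 6 arrays each and 0.025, 0.15, 0.2, 1 or 2 pmol on 3 arrays each. No group differs in cells or treatment, so a ratio away from 0 reports added RNA or the array, and not regulation of the gene in the hybridoma. A ratio gives no level, so the identity of the line could not be checked against plasma cell markers.

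Ubiquitin is activated by an E1 enzyme, passed to an E2 conjugating enzyme and joined to a target with the help of an E3 ligase. The Ube2 genes encode E2 enzymes, most Rnf and Trim genes encode ligases of the RING type, and Fbxo and Fbxl proteins are the F-box subunits that pick targets for the SCF ligases built on cullin 1. The Usp genes encode the ubiquitin-specific proteases, which take ubiquitin off. Antibody-secreting cells lean on this system to clear misfolded chains from the endoplasmic reticulum.

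Values are log2 ratios between the channels, with each array centred on its median and the paired spots of a probe averaged. No source used here says which channel is the numerator, so ratios are called positive or negative. Each amount was set against the same 6 arrays at 0 pmol in 1 limma fit of all 51 arrays. A probe was past the threshold at a Benjamini-Hochberg adjusted p under 0.05 over all features. Because the 10 comparisons share the 0 pmol arrays, their results are not independent of each other. Nothing in the labels says that replicates came from separate cultures, so the p-values cover the spread of these arrays alone, and that spread may be technical.

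An array measured 8370 to 16862 of its 16896 spots (median 16704), and those at 1 pmol missed 13.5% to 50.5%. Of the 89 ubiquitin enzyme probes, 40 were measured on all 51 arrays and the least measured on 47. The paired spots of these probes differed by a median of 0.15, against 0.152 for all features. The correlation of paired spots within an array ran from 0.198 to 0.976, and the lowest was that of 0.75 pmol replicate 4. The number of arrays limits the precision of each mean.

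At the largest amount, 2 pmol, 9 of the 89 probes were past the threshold, all with a higher ratio than at 0 pmol. That is 10.1% of the probes. Of all features 15.6% were past it, 10.3% higher and 5.33% lower. The 9 were Ube2j1 and Ube2ql1 among the E2 enzymes, Rnf220, Rnf20, Trim25 and Trim44 among the ligase families, Fbxo30 among the F-box proteins, and Usp25 and Usp18 among the proteases. The median difference of the 89 probes was 0.098, against 0.043 for all features. The median size of the difference, whatever its sign, was 0.389 for the probes and 0.445 for the features. Differences of at least 2 were found for 5 probes, and 5% of all features had one.

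**Figure D1:**
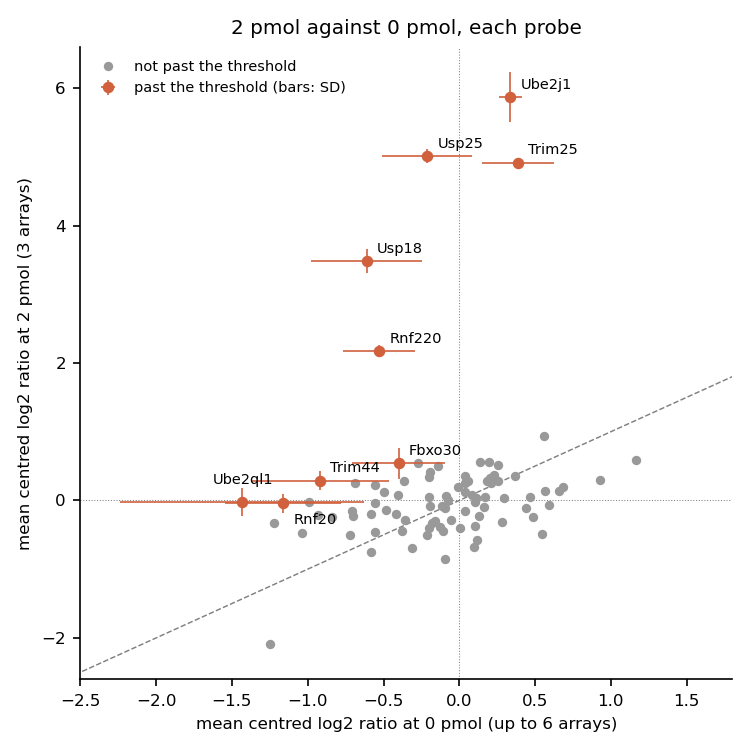
Each point is 1 of the 89 probes, with its mean log2 ratio at 0 pmol on the horizontal axis and at 2 pmol on the vertical axis, and the dashed line marks equal values. Orange points are past the threshold and their bars are 1 SD over arrays. Ube2j1, Usp25, Trim25, Usp18 and Rnf220 stand between 2.18 and 5.87 at 2 pmol, while Ube2ql1, Rnf20 and Trim44 have means of -1.43, -1.16 and -0.92 at 0 pmol and lie near 0 at 2 pmol.

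The identity of the added genes was not among the sources. Candidates for them were therefore taken from the 2 pmol arrays, as the 100 highest and 100 lowest mean ratios among features that were off 0 and agreed in sign over the measured arrays. Among the 100 positive candidates were 3 of the 89 probes, namely Ube2j1, Usp25 and the Trim25 probe at spot 12547. None of the 89 was among the negative candidates. The 3 candidates make 3.37% of the 89 probes, and the 200 candidates make 2.53% of all features. The last positive candidate had a mean of 3.99. Usp18 lay just outside with 3.48, and Rnf220 lay further out with 2.18. These values chose the candidates and are given as a description.

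Among the E2 enzymes, 2 of 15 probes were past the threshold at 2 pmol. Ube2j1 is anchored in the membrane of the endoplasmic reticulum and works in the disposal of misfolded proteins there. Its ratios at 2 pmol were 5.61, 5.71 and 6.29, and at 0 pmol they ran from 0.23 through a median of 0.34 to 0.43. The 2 groups lay far apart, with a difference of 5.53, a standard error of 0.63 and a limma adjusted p of 2.21e-09. All 45 arrays with added RNA were above all 6 arrays without it, with 1.42 as the lowest value and 6.69 as the highest. At 0.025 pmol, the smallest amount, the 3 arrays already gave 2.11, 2.73 and 3.42. The means did not climb step by step after that. At 0.15 pmol the values were 5.17, 5.203 and 5.59 and at 0.2 pmol 5.21, 5.24 and 5.91. The 6 arrays at 0.75 pmol ran lower, from 1.42 through a median of 3.44 to 4.56, and did not overlap the values at 0.15 and 0.2 pmol. Ube2j1 was past the threshold at all 10 amounts.

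Ube2ql1, the other E2 probe past the threshold at 2 pmol, showed another pattern. Its ratios at 2 pmol were -0.24, 0.00 and 0.16, close to 0. The difference was 1.41 (standard error 0.32, limma adjusted p 0.000907). The 0 pmol arrays were low and ran from -2.66 through a median of -1.42 to -0.44. The values at 0.15, 0.2, 0.25 and 0.5 pmol were also centred within 0.17 of 0 by their medians. At 0.025, 0.05, 0.1, 0.75 and 1 pmol the means were negative, at -1.06, -0.82, -0.41, -0.59 and -0.95. Of the 44 measured arrays with added RNA, 31 were negative. Ube2ql1 was past the threshold at 7 amounts. The first spot alone gave a difference of 1.11 with an adjusted p of 0.0603.

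Ube2b, the E2 enzyme of the Rad6 type, had 1 of its 2 probes at a difference of 0.95 with a limma adjusted p of 0.075. The other 12 E2 probes had differences at 2 pmol between -0.58 (Ube2d2a) and 0.82 (Ube2f), and none was past the threshold.

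Among the ring-finger and TRIM ligases, 2 of 21 Rnf probes and 2 of 14 Trim probes were past the threshold at 2 pmol. Trim25 is a RING ligase best known for acting on the RNA sensor RIG-I in the antiviral response. The probe at spot 12547 gave 4.83, 4.96 and 4.96 at 2 pmol, and 0.07 through a median of 0.40 to 0.64 at 0 pmol. The groups did not overlap, and the difference was 4.53 (standard error 0.48, limma adjusted p 2.96e-10). It was positive on all 45 arrays with added RNA and past the threshold at all 10 amounts. Of the 89 probes, Ube2j1 and this one were the 2 that were positive on each of the 45 arrays, and 1.6% of all features were. At 0.025 pmol the 3 values were 1.75, 1.89 and 2.76, and at 1 pmol they were 4.31, 4.70 and 5.27.

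Rnf220 is a RING ligase that binds the corepressor subunit Sin3b. The probe at spot 14836 gave 2.07, 2.22 and 2.24 at 2 pmol and -0.89 through a median of -0.51 to -0.19 at 0 pmol. The difference was 2.71 (standard error 0.37, limma adjusted p 1.29e-07), with no overlap. At 1 pmol it gave 1.41, 1.94 and 2.13. Its range overlapped that of the 0 pmol arrays at 0.1 pmol (lowest value -0.40), 0.5 pmol (-0.28) and 0.75 pmol (-0.27), and it was past the threshold at 5 amounts, from 0.25 pmol upward.

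Trim44, a TRIM protein with a ubiquitin-protease type zinc finger, and Rnf20, the ligase that puts 1 ubiquitin on histone H2B, were past the threshold at 2 pmol with values near 0. Trim44 gave 0.14, 0.34 and 0.39 at 2 pmol, and -1.69 through a median of -0.80 to -0.48 at 0 pmol, for a difference of 1.21 (limma adjusted p 0.0017). Rnf20 gave -0.18, -0.04 and 0.09 at 2 pmol, and -1.72 through a median of -1.08 to -0.78 at 0 pmol, for a difference of 1.12 (limma adjusted p 0.0122). In both, the 0 pmol arrays were all negative and did not overlap those at 2 pmol. The Rnf20 call was lost without 2 pmol replicate 2 (adjusted p 0.0594) or replicate 3 (0.0537), and on the second spot alone (difference 0.74, adjusted p 0.207). The Trim44 call was lost on the second spot alone (0.93, adjusted p 0.0592). The other 19 Rnf probes lay between -0.84 (Rnf8) and 0.97 (Rnf149), the other 12 Trim probes between -1.04 (Trim41) and 0.89 (Trim2), and none of them was past the threshold.

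Among the F-box proteins, 1 of 10 Fbxo probes was past the threshold at 2 pmol, and the Fbxl6 probe, with a difference of 0.10 (limma adjusted p 0.904), was not. Fbxo30, a substrate receptor of an SCF ligase, gave 0.29, 0.62 and 0.72 at 2 pmol with the probe at spot 4059, and -0.86 through a median of -0.43 to 0.02 at 0 pmol. The groups did not overlap, but the difference was small, 0.94 (standard error 0.25, limma adjusted p 0.00497). Without 2 pmol replicate 3 it was 0.86 with an adjusted p of 0.0509. The other 9 Fbxo probes lay between -0.77 (Fbxo36) and 0.72 (a further probe of Fbxo30), and none was past the threshold.

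Among the deubiquitinases, 2 of 28 Usp probes were past the threshold at 2 pmol. Usp25 cleaves ubiquitin chains and binds SUMO. Its probe gave 4.94, 4.97 and 5.13 at 2 pmol, and -0.71 through a median of -0.17 to 0.06 on the 5 measured arrays at 0 pmol. The difference was 5.22 (standard error 0.62, limma adjusted p 5.39e-09). At 1 pmol the values were 4.45, 4.94 and 5.61, which overlap those at 2 pmol. At 0.025 pmol they were -0.45, 0.24 and 0.57, which overlap the 0 pmol arrays. From 0.05 pmol upward no array overlapped the 0 pmol arrays, and the probe was past the threshold at 6 amounts.

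Usp18, which the interferon response induces and which removes the ubiquitin-like protein ISG15, gave 3.31, 3.47 and 3.67 at 2 pmol. On the 5 measured 0 pmol arrays it ran from -1.22 through a median of -0.53 to -0.25. The difference was 4.10 (standard error 0.56, limma adjusted p 1.49e-07), and at 1 pmol the values were 2.74, 3.37 and 3.96. Usp18 was past the threshold at 5 amounts, from 0.25 pmol upward. The other 26 Usp probes had differences at 2 pmol between -0.67 (Usp33) and 0.66 (Usp28), and none was past the threshold.

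**Figure D2:**
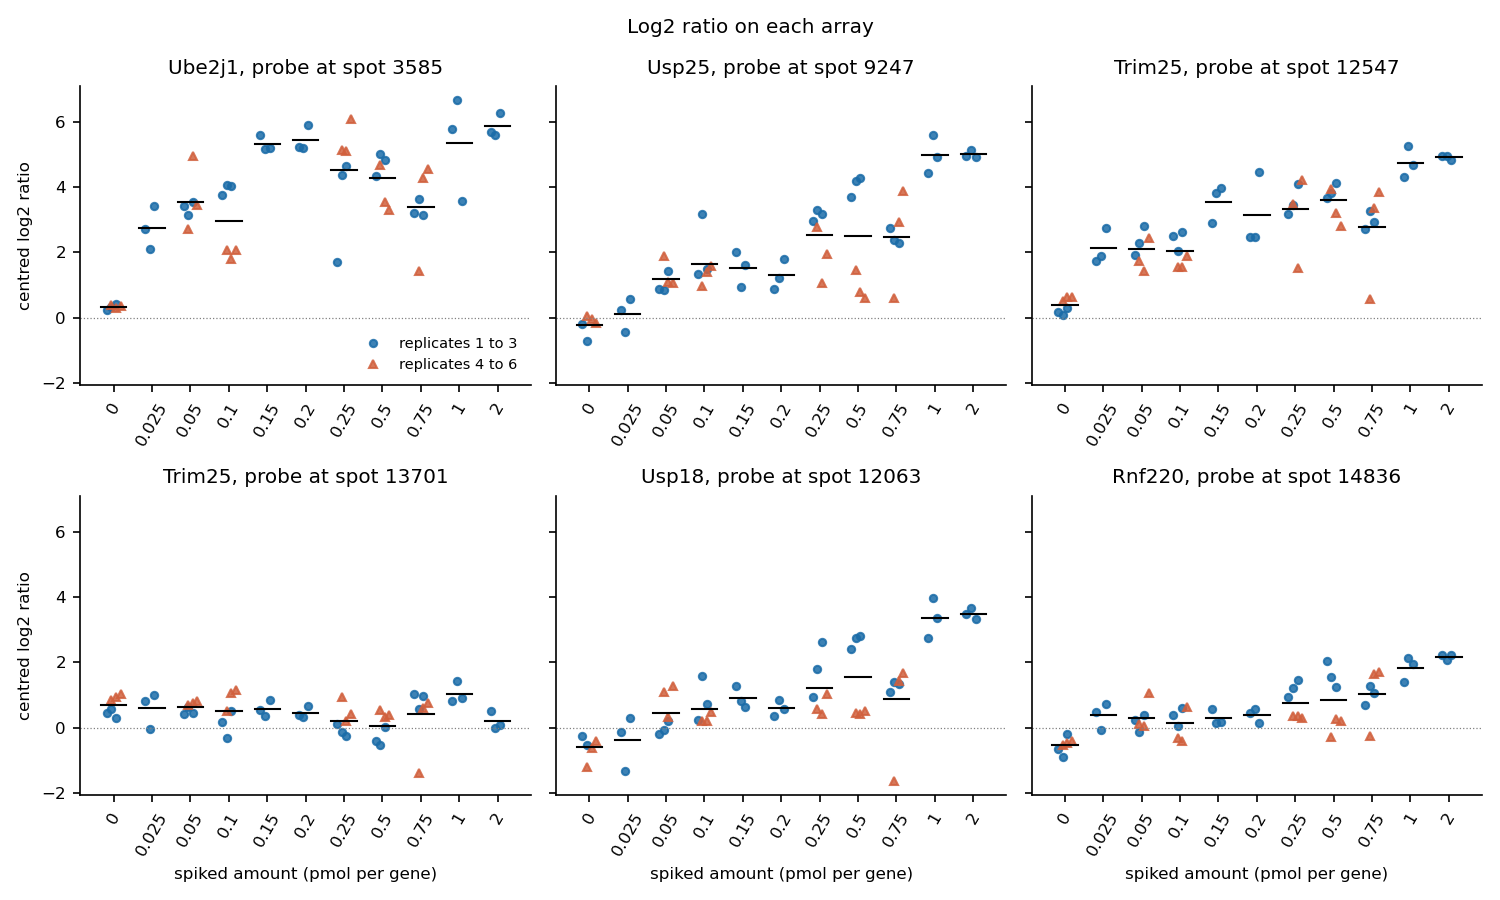
Centred log2 ratio on each array (vertical axis) for 6 probes at the 11 amounts (horizontal axis, pmol per gene, evenly spaced), with circles for replicates 1 to 3, triangles for replicates 4 to 6 and bars for group means. Ube2j1 is at 1.42 or above on every array with added RNA, and Trim25 has 1 probe that climbs to 4.92 beside another whose group means lie between 0.06 and 1.04.

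Where an amount had 6 arrays, replicates 1 to 3 and replicates 4 to 6 could lie far apart. At 0.5 pmol Usp25 averaged 4.05 over replicates 1 to 3 and 0.95 over replicates 4 to 6. Usp18 gave 2.65 and 0.46, and Rnf220 gave 1.62 and 0.07. Trim25 at spot 12547 was closer, with 3.87 and 3.32, and Ube2j1 gave 4.74 and 3.85. At 0.1 pmol Ube2j1 averaged 3.96 and 1.99. At 0.25 pmol the order was turned for Ube2j1, with 3.59 and 5.45, while Usp25 gave 3.15 and 1.94.

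The arrays were put into 6 sets by the correlation of features that are neither among the 89 probes nor candidates. The sets depend on the features used. Over features measured on all arrays, the 6 arrays at 0 pmol stood in a set of their own. The sets used here were chosen after that was seen, and comparisons with 0 pmol within or adjusted for a set rest on this choice. At 0.25 and 0.5 pmol, replicates 1 to 3 belong to the set that also holds all arrays at 1 and 2 pmol, and replicates 4 to 6 to the set that holds those at 0.15 and 0.2 pmol. In the set with 1 and 2 pmol, Usp25 had means of 3.15 at 0.25 pmol, 4.05 at 0.5 pmol, 3.41 at 0.75 pmol, 5.002 at 1 pmol and 5.01 at 2 pmol. One set holds arrays at 0, 0.1 and 0.75 pmol, 3 of each. In it Ube2j1 had means of 0.35, 1.99 and 3.34, Usp25 of -0.05, 1.32 and 2.47, and Trim25 at spot 12547 of 0.59, 1.67 and 2.98. Within that set the ranges of the 3 amounts did not overlap for any of these 3 probes. In the set with 0.15 and 0.2 pmol, means did not rise steadily between 0.15 and 0.5 pmol. At 0.15, 0.2, 0.25 and 0.5 pmol, Ube2j1 had 5.32, 5.45, 5.45 and 3.85. Usp25 had 1.53, 1.31, 1.94 and 0.95, and Trim25 at spot 12547 had 3.56, 3.14, 3.07 and 3.32. Another set holds 3 arrays at 0.05 pmol and 1 at 0.75 pmol. There Ube2j1 had 3.71 and 1.42, Usp25 1.35 and 0.6, and Trim25 1.87 and 0.59. The part of the array sets in the differences between replicates was not tested.

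With array set as a covariate, 6 probes were past the threshold at 2 pmol, and 6.99% of all features were. Ube2j1 kept a difference of 4.11, Trim25 of 3.48, Usp25 of 3.05, Usp18 of 2.94, Rnf220 of 1.71 and Ube2ql1 of 1.504. Trim44 (1.16, adjusted p 0.125), Fbxo30 (1.02, adjusted p 0.0936) and Rnf20 (0.62, adjusted p 0.547) lost their calls. Ube2j1 also lost its calls at 0.025, 0.05, 0.15, 0.2, 0.25 and 0.5 pmol, with differences between 1.69 and 3.27 and adjusted p from 0.06 to 0.614. Trim25 at spot 12547 lost those at 0.025 pmol (1.44, adjusted p 0.488), 0.05 pmol (2.00, adjusted p 0.0649) and 0.2 pmol (2.30, adjusted p 0.0618). The named lower calls from 0.15 to 0.5 pmol, given below, were lost as well. Ube2w had a limma adjusted p of 0.701 at 0.15 pmol and 0.647 at 0.25 pmol. Usp19 had 0.466 at 0.15 pmol and Usp22 0.856 at 0.2 pmol. At 0.5 pmol Usp7 at spot 9378 had 0.264 and Fbxo17 0.666. The lower calls of Usp33 at 0.1 pmol and of Ube2w and Ube2z at 1 pmol were kept.

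Over the smaller amounts, the share of these probes past the threshold lay near or below that of all features. At 0.025 pmol 2 of 89 were past it, Ube2j1 (difference 2.42) and Trim25 (1.74), against 4.98% of features (1.67% higher, 3.31% lower). Both calls were lost without 0.025 pmol replicate 3, with adjusted p of 0.156 and 0.246. At 0.05 pmol it was 3 probes, all higher, against 4.15% of features (2.25% higher, 1.91% lower). At 0.1 pmol 5 probes were higher and 1 lower, against 6.26% of features (4.09% higher, 2.17% lower). The lower one was Usp33 (-0.87, limma adjusted p 0.049), a protease that binds the von Hippel-Lindau protein, and the call was lost without any 1 of 0 pmol replicates 4, 5 and 6 or 0.1 pmol replicates 2, 4 and 5, with adjusted p from 0.0858 to 0.16.

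At 0.15 pmol 5 probes were higher and 3 lower, against 10.7% of features (6.79% higher, 3.89% lower). The lower ones named by the rule were Usp19, a protease anchored in the endoplasmic reticulum (-1.37, limma adjusted p 0.00305), and Ube2w, an E2 enzyme that acts on protein amino termini (-0.82, limma adjusted p 0.0338). The Ube2w call was lost without any 1 of 0 pmol replicates 4, 5 and 6 or of the 3 arrays at 0.15 pmol (adjusted p 0.054 to 0.172), and the Usp19 call without 0.15 pmol replicate 2 (adjusted p 0.0781). At 0.2 pmol 5 were higher and 1 lower, against 8.89% of features (6.03% higher, 2.87% lower). The lower one was Usp22 (-0.81, limma adjusted p 0.0417), the protease of the SAGA chromatin complex, and it too was lost without any 1 of 0 pmol replicates 4, 5 and 6 or of the 3 arrays at 0.2 pmol (adjusted p 0.0636 to 0.157).

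At 0.25 pmol 10 probes were higher and 1 lower, against 13% of features (8.98% higher, 4.04% lower), and the lower one was again Ube2w (-0.82, limma adjusted p 0.00961). That call was lost in replicates 1 to 3 alone (-0.48, limma adjusted p 0.264) and without centring (-0.15, adjusted p 0.869). Replicates 4 to 6 alone kept it (-1.09, limma adjusted p 0.0109). At 0.5 pmol 11 probes were higher and 4 lower, against 25.1% of features (14.1% higher, 11% lower). Among the 4 were Usp7, the protease of Mdm2 and p53 (-0.76 at spot 9378, limma adjusted p 0.00368), and Fbxo17 (-0.81, limma adjusted p 0.0148). Without centring the arrays both of these turned positive, at 1.28 and 1.22, while the median of all features moved up by 2.05. The Fbxo17 call was lost without 0 pmol replicate 5 (adjusted p 0.0574) or 0.5 pmol replicate 3 (0.0523). At 0.75 pmol 8 probes were higher and 0 lower, against 7.49% of features (4.92% higher, 2.56% lower). Limma found 17 with an unadjusted p under 0.05 there, a count not set against all features. The largest were Ube2j1 (3.04) and Usp25 (2.68).

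**Figure D3:**
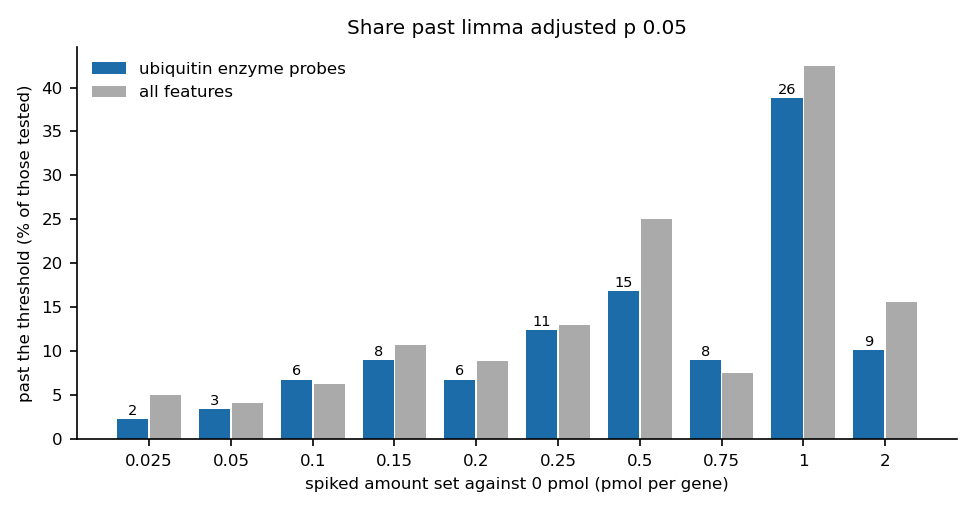
Bars give the share of probes past the threshold at each amount set against 0 pmol, in percent of those tested, for the ubiquitin enzyme probes (blue, with their number) and for all features (grey). The blue bars run from 2.25% at 0.025 pmol to 38.8% at 1 pmol and stay close to or below the grey ones except at 0.1 and 0.75 pmol.

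Counted over the 10 amounts, 52 of the 89 probes were past the threshold at none and 37 at 1 or more. Of these, 17 were past it only at 1 pmol, and 7 were past it at 5 or more amounts. The 7 were Ube2j1 and Trim25 (10 amounts each), Ube2ql1 (7), Usp25 and Trim44 (6 each) and Usp18 and Rnf220 (5 each). These counts over the amounts were not set against those of all features. Of all features, 25.1% were past the threshold at 0.5 pmol and 42.5% at 1 pmol. One more probe was singled out after its values were seen. Rnf149, a membrane-bound RING ligase, was past the threshold at 0.15, 0.2, 0.25 and 0.5 pmol, with differences of 1.68, 1.84, 1.31 and 1.83, and not at 2 pmol, where the difference was 0.97.

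At 1 pmol 26 of the 67 probes with enough measured arrays were past the threshold, 14 higher and 12 lower, which is 38.8% against 42.5% of features (15.9% higher, 26.6% lower). Another 22 of the 89 probes could not be tested there, 13 because 1 array measured them and 9 because none did. The 14 higher ones included Usp25 (5.21), Ube2j1 (5.01), Trim25 (4.37), Usp18 (3.97) and Rnf220 (2.36). Without 1 pmol replicate 3, 50 probes could be tested, and 17 of them (34%) were past it. The share of all features in that fit was not set beside it.

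The 2 most negative differences at 1 pmol belonged to the E2 enzymes Ube2w and Ube2z, the latter charged by the alternative E1 enzyme Uba6. Ube2w gave -3.90 and -4.08 on replicates 1 and 3 at 1 pmol and had no value on replicate 2. Each of these came from the first of its paired spots alone, because the second had no usable value on any of the 3 arrays. The difference was -4.55 (standard error 0.30, limma adjusted p 1.23e-15), and with the upper-limit values kept as measurements the difference was -4.547 with an adjusted p of 0.082. At 2 pmol the same probe gave 0.02, 0.08 and 0.32.

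Ube2z gave -0.60, -4.85 and -1.88 at 1 pmol, a difference of -2.57 (standard error 0.38, limma adjusted p 4.30e-07). Its paired spots gave -0.12 and -1.09 on replicate 1 and -0.997 and -2.76 on replicate 3, and replicate 2 had only the second spot, at -4.85. From the first spot alone the difference was -0.69 with an adjusted p of 0.0503. At 2 pmol the difference of Ube2z was -0.35. Without 1 pmol replicate 2 the difference at 1 pmol was -1.37 (limma adjusted p 6.39e-05). The part of the missing spots in the ratios of both E2 probes was not tested.

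Ratios without any added RNA were not all at 0. In the mean of the 6 arrays at 0 pmol, 24 of the 89 probes differed from 0 (27%, with 25.2% of features), 8 above and 16 below, where 10% of features lay above and 15.2% below. By family these were 8 of 14 Trim probes (2 above and 6 below), 4 of 10 Fbxo, 3 of 15 Ube2, 4 of 21 Rnf, 5 of 28 Usp and 0 of 1 Fbxl. Highest were Rnf10, a ligase for ribosomal proteins (0.93, limma adjusted p 0.000595), the Trim25 probe at spot 13701 (0.68, limma adjusted p 0.00842) and Usp7 at spot 9378 (0.66, limma adjusted p 0.000561). Lowest were Ube2ql1 (-1.43, limma adjusted p 7.86e-07), Rnf8, a ligase of the DNA damage response (-1.25, limma adjusted p 0.0449), and Trim2 at spot 10316 (-1.22, limma adjusted p 0.00321). Without centring, the 3 positive means became -1.02, -1.27 and -1.30. Of the 9 probes past the threshold at 2 pmol, 4 had a 0 pmol mean below 0 past its own threshold, and these are Ube2ql1, Rnf20, Trim44 and Fbxo30. Both tests use the same 6 arrays, so a low mean at 0 pmol by itself raises the difference. The matching count over all features was not set beside it. The Rnf8 call was lost without any 1 of 0 pmol replicates 2 to 6 (adjusted p 0.0784 to 0.124), and the Trim2 call without 0 pmol replicate 3 (-0.52, adjusted p 0.0895).

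Rnf8 had negative group means at every amount but 1 pmol, with a wide spread. At 0.15 pmol it gave -4.12, -2.89 and -2.27, and at 2 pmol -3.18, -1.87 and -1.21. The 6 arrays at 0 pmol ran from -1.77 through a median of -1.40 to -0.10, and those at 0.5 pmol from -4.95 through -2.22 to -0.45. The difference at 2 pmol was -0.84 (limma adjusted p 0.526), and Rnf8 was past the threshold at none of the 10 amounts. The standard error of that difference was 0.81, about as large as the difference itself.

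The slope of the ratio on log2 of the amount, over the 45 arrays with added RNA, was past the threshold for 21 of the 89 probes, 14 rising and 7 falling. That is 23.6%, against 23.1% of features (13% rising, 10.1% falling). The steepest rises per doubling of the amount were those of Usp25 (0.64, standard error 0.09, limma adjusted p 3.97e-07), Usp18 (0.47, limma adjusted p 2.09e-05) and Trim25 at spot 12547 (0.42, limma adjusted p 3.49e-05). The slopes of Ube2j1, 0.32, and Rnf220, 0.28, were smaller. On the falling side were Ube2w (-0.20, limma adjusted p 0.0454), Trim41 (-0.16, limma adjusted p 0.037) and Rnf145 at spot 13045 (-0.15, limma adjusted p 0.00418), the last a membrane-bound ligase of sterol metabolism. Without the 1 pmol arrays the Ube2w slope was -0.08 with an adjusted p of 0.14, and the call was also lost without any 1 of 16 single arrays (adjusted p 0.0505 to 0.0891). These were 0.025 pmol replicates 1, 2 and 3, 0.05 pmol replicates 1, 2, 3 and 6, 0.1 pmol replicates 1, 4, 5 and 6, 0.5 pmol replicates 2 and 3, 0.75 pmol replicate 4, and 1 pmol replicates 1 and 3. The slope moved most without 1 pmol replicate 1 (-0.15, adjusted p 0.0891) or replicate 3 (-0.14, adjusted p 0.0845), and it was past the threshold in 29 of its 53 alternatives. The Trim41 call was lost without 0.025 pmol replicate 2, 0.05 pmol replicate 6, 2 pmol replicate 1 or 2 pmol replicate 3 (adjusted p 0.0519 to 0.0646). The count fell to 13 without 0.025 pmol replicate 2.

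With array set as a covariate, limma put 0 of the 89 slopes past the threshold, and 16 of 7920 features (0.202%). An unadjusted p under 0.05 was found for 10 of the 89. The slopes were then 0.24 for Usp25 (adjusted p 0.339), 0.22 for Trim25 (adjusted p 0.359) and 0.11 for Usp18 (adjusted p 0.75). The larger amounts lie mostly in 1 array set, so amount and array set can only partly be told apart.

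**Figure D4:**
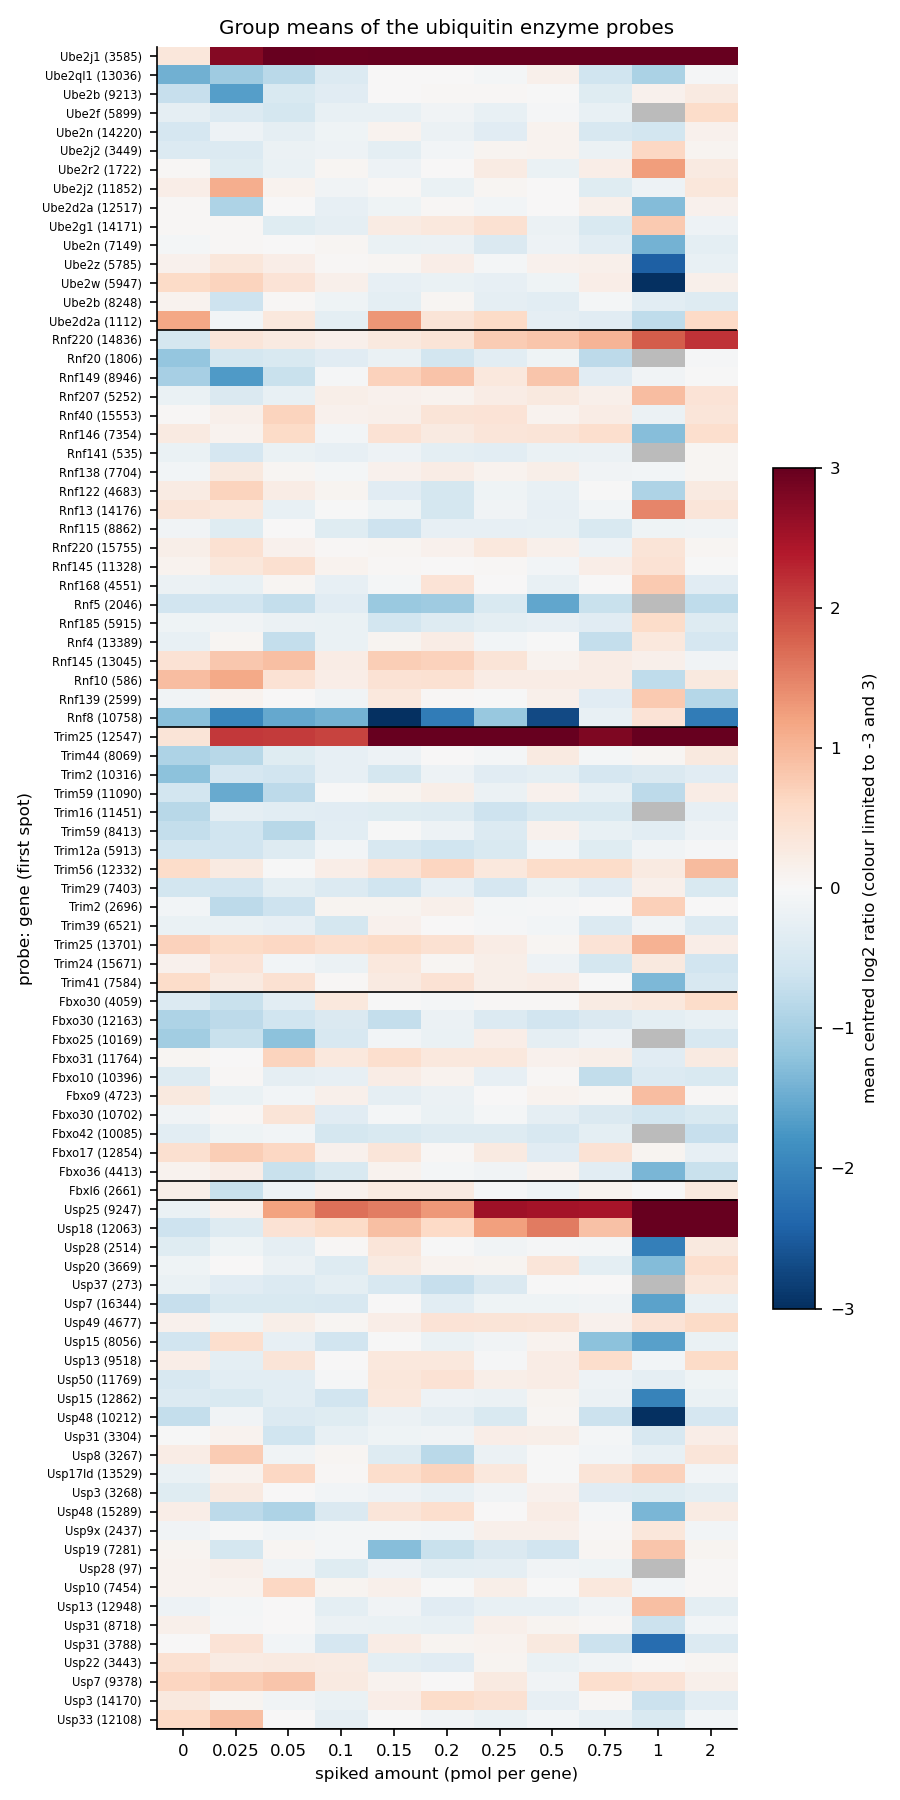
Mean centred log2 ratio of the 89 probes (rows, grouped by family and ordered by the 2 pmol difference) at the 11 amounts (columns), with grey where no array had a value and colour limited to -3 and 3. Ube2j1, Trim25 at spot 12547, Usp25 and Usp18 are the rows that turn deep red toward 2 pmol, and the blue cells at 1 pmol include Ube2w and Ube2z.

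Some genes had more than 1 probe. Of the 70 genes, 17 had several probes, 15 with 2 and 2 (Fbxo30 and Usp31) with 3. In 16 of the 17 the platform lists the same sequence accession for all probes of the gene. The difference at 2 pmol had the same sign in all probes of 6 of the 17 genes. In 3 of the 17 genes 1 probe was past the threshold at 2 pmol, and in 0 more than 1.

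Trim25 gave the widest gap. Its probe at spot 12547 differed by 4.53, and the probe at spot 13701 by -0.48 (standard error 0.34, limma adjusted p 0.365), with 2 pmol values of -0.01, 0.09 and 0.52. The second probe overlapped its 0 pmol range at all 10 amounts. Rnf220 gave 2.71 at spot 14836 and -0.12 at spot 15755 (standard error 0.35, limma adjusted p 0.863). Fbxo30 gave 0.94, 0.72 and -0.34, of which the second had an adjusted p of 0.153. The median gap over the 17 genes was 0.67 and the largest 5.01. The probe sequences were not analysed here, and the difference between probes of a gene was not tested.

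**Figure D5:**
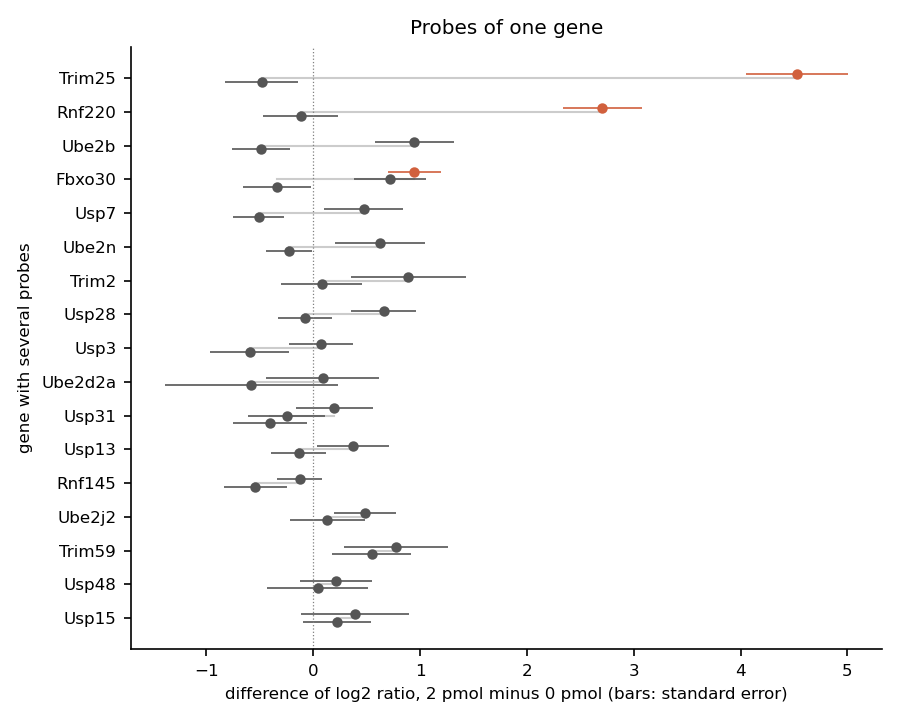
Difference of the log2 ratio between 2 and 0 pmol (horizontal axis) for each probe of the 17 genes with several probes (vertical axis), with bars of 1 standard error and orange for probes past the threshold. Trim25 and Rnf220 have 1 probe far to the right and another near 0, and the widest gap among the other genes is that of Ube2b, 1.43.

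On the array surface, several of the strongest probes had a strong neighbour in the same column of their print block. Usp25, in row 3 and column 7 of block 27, lay between a probe for Tmc7 with a 2 pmol mean of 5.42 and an unnamed probe with 4.44, both of them positive candidates. Usp18 had the same place in block 35 and lay between Arhgap35 (3.39) and an unnamed probe with -1.93. Trim25 at spot 12547 lay between Tmem30a (3.13) and B430319G15Rik (1.98). Rnf220 lay between Hook1 (2.52) and Ift140 (0.92), and Ube2j1 between Arel1 (1.98), itself a ubiquitin ligase, and Cdh5 (-0.62).

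A column neighbour with a 2 pmol mean of at least 2 was found for 4 of the 9 probes past the threshold at 2 pmol, for 5 of the 89 (5.62%), for 4.87% of all features and for 46 of the 100 positive candidates. A row neighbour that high was found for 0 of the 9, for 3 of the 89 (3.37%), for 5.77% of all features and for 9 of the 100. The part of position in the ratios was not tested.

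Other genes of the pathway were followed in lists chosen by function, with earlier results of these data known. Their counts are therefore a description. Of all features, 15.6% were past the threshold at 2 pmol (10.3% higher, 5.33% lower). At 2 pmol 10 of 24 probes (for 16 genes) for cullins and SCF parts were past the threshold, 6 higher and 4 lower. The median difference of the list was 0.44. The 3 largest by size were lower and belonged to Fem1c, a substrate receptor of cullin 2 ligases (-7.24 and -6.90), and Rbx1, the RING subunit of cullin ligases (-2.36). Both Fem1c probes were among the negative candidates for added genes. The 6 higher ones, between 0.78 and 2.24, were 2 probes of Fbxw11 and those of Cul4a, Btrc, Cul1 and Fbxw15. Of 23 probes for HECT ligases 2 were past it, Herc2 (3.48) and Ube3c (1.67). Of 24 probes for other RING and U-box ligases 2 were, Traf4 (-3.61), also a negative candidate, and Rc3h2 (0.94). Among other deubiquitinases it was 1 of 11, Uchl3 (-0.80), and among proteasome subunits 0 of 9 by limma, with 1 at an unadjusted p under 0.05. The single probe of the list of E1 enzymes and ubiquitin-like modifiers was not past it, with a difference of -0.55. Marker lists held few probes. Of 2 probes for B and plasma cell markers Pou2af1 (-1.68) was past the threshold, and of 3 probes for T, NK and myeloid markers Cd3e (2.02) and Cd28 (-0.68) were.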

How the data were processed

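The authors deposited 1 ratio per spot on 51 arrays, in log2 units as read from the values. Background correction, normalization and the numerator channel are not given in the sources used here, and no scanner intensities were used. The value 16.61, an upper limit found 1074 times, was treated as missing. Each array was centred on the median of its non-control spots (deposited medians ran from -3.33 to 0.97), spots 22 positions apart were averaged, and 528 control probes were left out. Symbols come from the platform annotation, checked against RefSeq genes of GRCm38.p6 (10766 of 16896 spots matched), which changed no name used here.

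Features were tested with limma 3.58.1 (R 4.3.3, with version 1.17.8 of data.table): 1 mean per amount, empirical Bayes moderation, two-sided tests, at least 2 measured arrays per group, and at least 10 for the slope. The fits were tested on simulated data with independent noise for each feature and array. These data held no array sets, so the simulation does not cover shared differences between arrays. Array sets came from Ward clustering of correlations over the features that both arrays of a pair measured. This was chosen after clustering over features measured on all arrays had put the 0 pmol arrays apart from all others, which leaves no value against 0 pmol. Named were probes past the threshold: up to 10 each way at 2 pmol, 2 each way at other amounts, 3 each way for the 0 pmol mean and slope, 3 per list, the largest in each family, and all probes of genes with several. The members and lists were chosen with earlier results of these data known. Alternatives were no centring, equal spread, complete features, upper limits kept, either spot alone, a replicate block, array set, separate fits, replicate subsets and leaving out each array. Summaries and figures used Python 3.11.15 with matplotlib 3.10.9.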

Additional observations from a re-analysis of the deposited data

Results flagged for a closer look

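For the 9 probes past the threshold at 2 pmol, 54 groups of 5 or 6 arrays were searched for an array far from the others, and 6 groups held one. Chance flags about 1 in 20 groups. Of the 6, 3 were on 0.75 pmol replicate 4, the array with the lowest correlation of paired spots (0.198). On it Usp18 gave -1.65 where the other 5 arrays ran from 1.09 to 1.68, Trim25 at spot 12547 gave 0.59 where they ran from 2.71 to 3.87, and Ube2ql1 gave -1.56 where they ran from -0.51 to -0.30.

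The others were on different arrays. Ube2j1 gave 4.97 on 0.05 pmol replicate 5, with the others between 2.71 and 3.54. Usp25 gave 3.17 on 0.1 pmol replicate 2, with the others between 0.97 and 1.59. That array lies in another array set than the rest of its group, and without it the Usp25 difference at 0.1 pmol was 1.57 with a limma adjusted p of 0.0754. Trim44 gave 0.60 on 0.75 pmol replicate 3, with the others between -0.20 and -0.16.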

How the results depend on the processing

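Counts of the 89 probes past the threshold moved as follows. The percent in brackets is the share of all features then past it. Without centring there were 1, 1, 3, 5 and 2 at 0.025, 0.05, 0.1, 0.15 and 0.2 pmol (1.72% to 4.93%), 86 at 0.5 (91.3%), 3 at 0.75 (2.15%), 7 at 1 (9.47%) and 32 at 2 pmol (36.2%), 88 in the 0 pmol mean (99.7%) and 5 in the slope (3.38%). The median of all features then shifted by -0.02 to 2.05. With arrays scaled to one spread there were 0 (11 unadjusted) at 0.025 (0.936%), 1 at 0.05 (2.35%), 11 at 0.2 (13%), 14 at 1 (21.6%) and 14 at 2 pmol (20.2%). Keeping only features with a value on each array, which tests 40 of the 89 probes, gave 2, 4, 3, 3, 8, 3 and 3 at 0.1, 0.15, 0.2, 0.25, 0.5, 0.75 and 2 pmol (8.89%, 16.2%, 14%, 21%, 32.2%, 11.6% and 25.5%), 10 in the 0 pmol mean (28%) and 12 in the slope (32.3%). With array set as a covariate there were 0 (11 unadjusted), 1, 12, 1, 0 (13 unadjusted), 1 and 3 from 0.025 to 0.5 pmol (1.03%, 2.83%, 9.27%, 2.21%, 2.41%, 3.25% and 5.04%), 12 at 1 pmol (24.1%) and 0 (10 unadjusted) in the slope (0.202%). A fit of 1 amount and 0 pmol alone gave 12 at 0.2 (12.1%), 16 at 1 (29.8%) and 17 at 2 pmol (22%). Replicates 1 to 3 alone gave 7 at 0.05 pmol (6.12%) and 11 in the 0 pmol mean (9.05%), and replicates 4 to 6 gave 14 at 0.05 (12.7%) and 1 at 0.1 pmol (3.45%). The cause was not tested.

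Leaving out 1 array gave 0 to 4 at 0.025, 2 to 3 at 0.05, 3 to 8 at 0.1, 4 to 8 at 0.15, 4 to 8 at 0.2, 9 to 12 at 0.25, 12 to 17 at 0.5, 4 to 8 at 0.75, 17 to 30 at 1 and 7 to 10 at 2 pmol, 17 to 25 in the 0 pmol mean and 13 to 24 in the slope. The share of all features was not set beside these counts, so they do not show whether all features moved alike. Single arrays that moved a count by over 1.5 times were 0.025 pmol replicates 1 (4) and 3 (0, with 7 unadjusted), 0.1 pmol replicate 2 (3), 0 pmol replicates 4 and 5 (5 each) and 0.15 pmol replicates 1, 2 and 3 (5, 4 and 5) at 0.15 pmol, 0 pmol replicates 4 and 6 and 0.75 pmol replicate 1 (4, 5 and 5) at 0.75 pmol, 1 pmol replicate 3 (17 of 50 tested, instead of 26 of 67), and 0.025 pmol replicate 2 in the slope (13).

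By the median, same-numbered arrays of different amounts did not deviate together: the median correlation was -0.012, against -0.002 for other numbers. Of the 210 same-numbered pairs, 43 correlated above 0.1, a count not set against that of other-numbered pairs. A median cannot show blocks, such as replicates 1 to 3 at 0.25 and 0.5 pmol, which share an array set. The numbers were taken to pair no samples. With a replicate block the count at 0.15 pmol was 5, with 9.91% of all features past the threshold. Ube2w lost its calls at 0.15 pmol (-0.76, adjusted p 0.065) and in the slope (-0.20, adjusted p 0.0604), and no other named call changed.

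Of 1696 recomputed values of named probes, 1546 kept their side of the threshold, and calls among them kept their direction. Another 127 lost a call, 15 gained one and 8 reversed, with a call before or after. Values short of the threshold could change sign without being counted as reversed. An example is Trim2 at spot 10316 at 2 pmol, 0.89 in the main fit and -0.34 with array set as a covariate. Reversed without centring were Ube2w at 0.15 pmol (0.032), Usp7 at spot 9378 (1.28) and Fbxo17 (1.22) at 0.5 pmol, and the 0 pmol means of Rnf10 (-1.02), Trim25 at spot 13701 (-1.27) and Usp7 (-1.30). With upper limits kept, Ube2w at 0.25 pmol (2.22) and Usp31 at 2 pmol (2.60) reversed. At 2 pmol Ube2j1, Trim25 at spot 12547 and Rnf220 at spot 14836 stayed past the threshold in all 18 alternatives run, and Usp25 and Usp18 in all 17.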
